A study of Mus musculus with 16 samples.

Results

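The mitochondrial ribosomal proteins, read here as a set of 78 genes, were measured by RNA sequencing in mouse liver. The set holds every protein-coding gene of the deposited table whose symbol is Mrpl or Mrps followed by a number and at most 1 letter, 78 of 55401 genes. Of these, 49 carry an Mrpl symbol and were read as the large subunit, and 29 carry an Mrps symbol and were read as the small subunit. The 16 libraries come from 4 groups of 4 mice: negative control mice, negative control mice given BBR, AKR1B10 knockdown mice, and AKR1B10 knockdown mice given BBR. BBR stands for berberine in this text, an alkaloid of plants, because the series title names that compound together with fatty liver disease. The sample names carry the prefix AAV in all 4 groups, so the negative controls also carry a vector. The dose, route and duration of BBR, the promoter and target sequence of the knockdown vector, and the strain, age and diet of the mice are not given in the sources used here.

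The mitochondrial ribosome translates the few mRNAs of the mitochondrial genome, which encode core subunits of the respiratory chain. Its RNAs are made inside the organelle, whereas all of its proteins are encoded in the nucleus, made in the cytosol and imported. About its structure it is known that some proteins descend from the bacterial ribosome and others were added in mitochondria, and that the symbols do not always give the subunit. Mrps18a and Mrps30 sit in the large subunit, Mrps18b and Mrps18c in the small one, and Mrps36 belongs to the 2-oxoglutarate dehydrogenase complex of the citric acid cycle. These genes were kept under their symbols.

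Total counts per library lay between 46273129 and 66235443, and the 78 genes together held 91784 to 179529 counts per library. Akr1b10, the mouse gene with the symbol in the label, did not show a lower level under the label. Its mean was 0.528 ± 0.230 FPKM (SD, n = 4) there and 0.397 ± 0.151 FPKM (SD, n = 4) in the negative controls. The ranges, 0.351 to 0.859 FPKM and 0.177 to 0.505 FPKM, overlapped and lay below 1 FPKM. Levels this low give little ground to judge the knockdown. As a lower level was not seen, the libraries with this label are called knockdown-labelled. All 6 hepatocyte markers examined were detected in every group, with summed levels of 28897 to 36980 FPKM (fragments scaled by transcript length and library total) in 15 of the 16 libraries. Knockdown-labelled library 4 stood apart, with 19271 FPKM of those markers and 35.4% of its counts in mitochondrially encoded genes, against 10.98% to 15.9% in the other 15 libraries. Negative control library 2 with BBR held 100 FPKM of 4 muscle and brown fat markers, of which Ucp1 was at 0, and the other libraries 0.169 to 2.08 FPKM. The titles number the mice of a group and give nothing more on the animals, so p-values measure the spread between these samples, which may in part be technical. In bulk liver RNA, fewer cells of a type and less RNA per cell cannot be told apart.

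All 78 genes passed the filter of at least 1 FPKM in at least 4 libraries, so none was lost from the set. Their levels, compared per length as the median FPKM over the 16 libraries, were above that of the typical liver gene. The median gene stood at 14.1 FPKM in the large subunit and at 8.63 FPKM in the small subunit, and at 3.66 FPKM over the 10846 genes tested. From the lowest to the highest gene the medians spanned 37.8-fold in the large subunit and 20.6-fold in the small subunit.

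In the large subunit the highest levels were those of Mrpl12, the protein of the flexible stalk that contacts translation factors, with a median of 61.4 FPKM and a range over libraries of 30.4 to 74.7 FPKM. Mrpl14, which lies on the face towards the small subunit, followed with a median of 53.2 FPKM (range 30.6 to 84.9), and Mrpl34 and Mrpl18 with medians of 47.7 and 44.1 FPKM. The ranges of these 4 genes overlapped, so neighbours in this order did not differ beyond their spread. The lowest were Mrpl3, a conserved core protein, with a median of 1.62 FPKM (range 1.01 to 1.96), Mrpl19 with 1.94 FPKM, Mrpl48 with 2.27 FPKM and Mrpl32, a protein cut by the m-AAA protease before it is assembled, with 2.51 FPKM. The high and the low group did not overlap in any library.

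The small subunit was led by Mrps21 with a median of 61.3 FPKM and a range over libraries of 20.4 to 88.8 FPKM. Mrps7, a conserved protein of the head of the subunit, had a median of 40.7 FPKM, Mrps28 one of 35.2 FPKM and Mrps24 one of 20.2 FPKM. At the other end were Mrps9 with 2.98 FPKM, Mrps22, a mitochondria-specific protein, with 3.12 FPKM, Mrps30 with 3.13 FPKM and Mrps35, also mitochondria-specific, with 3.37 FPKM. Mrps18a, Mrps18b and Mrps18c, 3 copies of 1 ancestral bacterial protein, had medians of 5.47, 13.7 and 16.1 FPKM, and Mrps36 had 11.3 FPKM. Genes for proteins with a bacterial homologue had a median level of 14.2 FPKM in the large subunit (30 genes) and 9.97 FPKM in the small subunit (16 genes), and genes for mitochondria-specific proteins 12.9 FPKM (19 genes) and 6.70 FPKM (9 genes). The counts behind these levels ran from 77 to 8380 per gene and library in the large subunit and from 215 to 6289 in the small subunit.

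**Figure D1:**
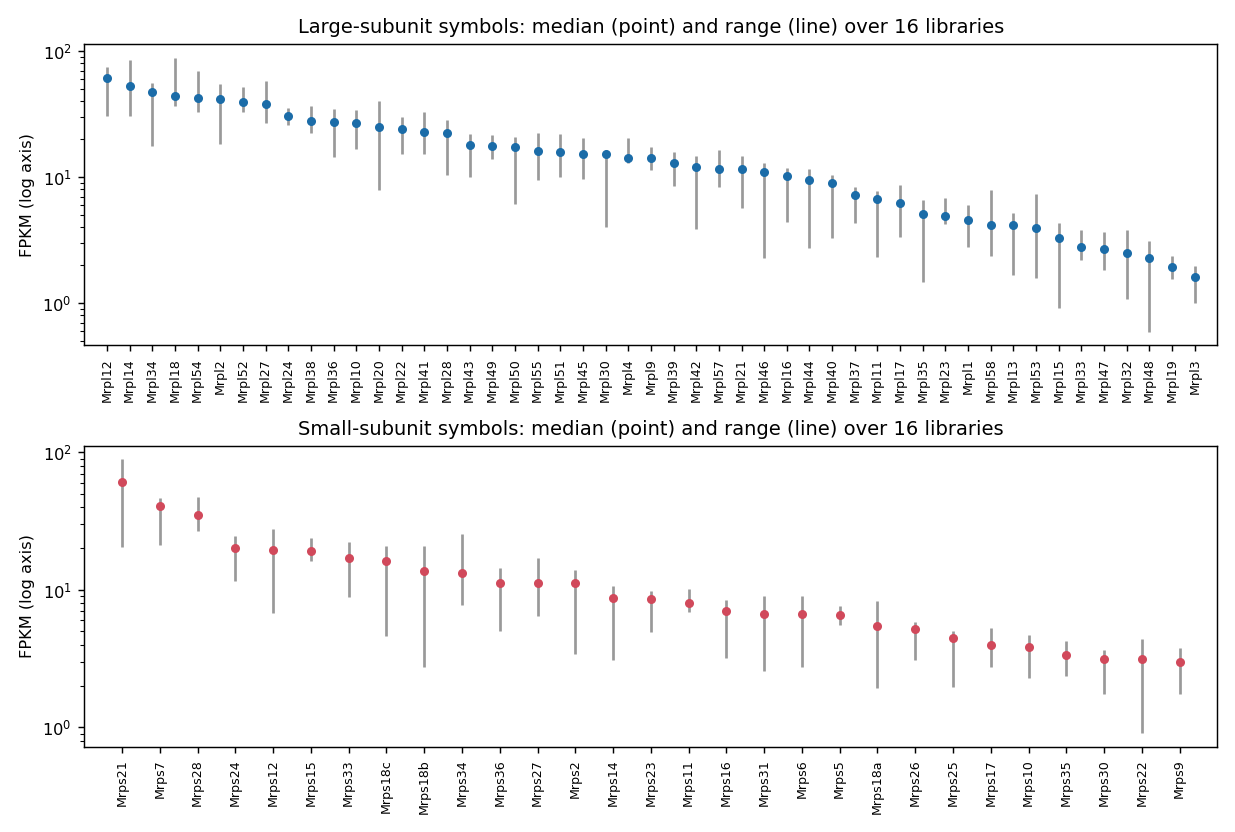
Level of each gene in FPKM on a log axis, large-subunit symbols above and small-subunit symbols below, each ordered by its median over the 16 libraries (point), with a line from the lowest to the highest library. The medians run from 1.62 to 61.4 FPKM above and from 2.98 to 61.3 FPKM below.

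The genes are scattered and have mostly short transcripts. They lie on 17 chromosomes, and their longest annotated coding transcripts have a median length of 1327.5 bases, against 2793 bases over 9079 tested protein-coding genes. A protein-coding gene that starts within 1000 bases on the opposite strand was annotated for 33 of the 78 (42.3%), namely 24 of 49 large-subunit and 9 of 29 small-subunit genes. It was annotated for 17.7% of the tested protein-coding genes. Pairs that point apart and pairs that overlap at their starts were counted together. Several of these neighbours also work in mitochondria: Mrps12 starts 172 bases from Sars2, the mitochondrial seryl-tRNA synthetase, Mrpl36 starts 29 bases from Ndufs6 and Mrpl47 615 bases from Ndufb5, both subunits of respiratory complex I, and Mrpl43 starts 779 bases from Twnk, the mitochondrial DNA helicase. Mrpl46 and Mrps11 are each other's neighbour, with starts 412 bases apart and 173 exon bases shared across the strands. Exons of 28 genes (35.9%, against 31.5%) overlapped an exon on the other strand, and the sources used here do not say if the counting took strand into account. For 9 genes more than 10% of the 150-base windows of the transcript occur, on either strand, in another annotated gene: Mrpl53 (69.3% of windows), Mrps25 (64.6%), Mrps34 (64.5%), Mrpl19 (34.3%), Mrpl43 (22.7%), Mrps18b (19.8%), Mrpl47 (17.6%), Mrpl24 (12.8%) and Mrps6 (11.4%). This makes their counts uncertain, for matches on the other strand only if the counting ignored strand.

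Promoters of 69 genes were matched by symbol in the RefSeq promoter table (build GRCm38.p6; 75 sequences from 250 bases before to 50 after the start). Each was searched on both strands for motifs of factors known from other mammalian genes of mitochondrial biogenesis. The ETS-family motif CCGGAAG, bound by factors such as GABP, was in 26 of the 75 (34.7%), in 18.6% of 9603 promoters of tested genes and in 8.86% of all 32851 promoters. The YY1 motif, spelled out by the capitals of the Mrpl37 promoter printed here, was in 5 of 75 (6.67%), against 1.68% and 0.633%. The NRF1 motif, spelled out by the capitals of the Mrpl32 promoter, was in 3 of 75 (4.00%), against 2.11% and 0.971%, all 3 in large-subunit genes (Mrpl32, Mrpl39 and Mrpl9). No matches of different motifs overlapped in these promoters. The median GC content was 58.7% in these promoters and 60.3% in those of tested genes. A match is a string of letters in the window and not a measured binding site.

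The promoters below belong to a few of the genes named later, printed 5′ to 3′ along the gene with motif letters in capitals. They are examples, and the share of them with a motif does not stand for the set. Mrps18a (chr17:46110754-46111053, plus strand) holds an ETS and a YY1 motif, Mrpl37 (chr4:107066817-107067116, minus strand) a YY1 motif, Mrps11 (chr7:78782881-78783180, plus strand) a YY1 motif on the other strand, in a window that partly overlaps that of Mrpl46, Mrpl32 (chr13:14612988-14613287, minus strand) the NRF1 motif, and Mrpl14 (chr17:45686099-45686398, plus strand) none of the 3.
Mrps18a: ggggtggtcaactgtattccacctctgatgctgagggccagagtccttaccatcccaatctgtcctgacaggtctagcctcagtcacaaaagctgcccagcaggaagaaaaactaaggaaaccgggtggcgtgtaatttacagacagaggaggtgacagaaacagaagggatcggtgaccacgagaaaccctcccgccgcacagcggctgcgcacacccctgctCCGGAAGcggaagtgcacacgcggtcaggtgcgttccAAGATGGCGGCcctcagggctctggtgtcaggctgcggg
Mrpl37: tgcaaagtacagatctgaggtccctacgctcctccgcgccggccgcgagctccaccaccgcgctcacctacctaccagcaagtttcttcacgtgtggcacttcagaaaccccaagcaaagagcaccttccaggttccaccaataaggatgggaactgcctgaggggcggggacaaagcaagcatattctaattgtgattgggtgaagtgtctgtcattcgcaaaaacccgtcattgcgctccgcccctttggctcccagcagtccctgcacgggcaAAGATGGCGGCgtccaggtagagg
Mrps11: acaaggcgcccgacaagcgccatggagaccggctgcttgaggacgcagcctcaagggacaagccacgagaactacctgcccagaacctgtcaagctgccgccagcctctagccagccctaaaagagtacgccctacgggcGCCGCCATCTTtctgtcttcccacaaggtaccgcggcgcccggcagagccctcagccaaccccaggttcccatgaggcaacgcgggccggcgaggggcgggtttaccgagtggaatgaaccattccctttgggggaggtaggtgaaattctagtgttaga
Mrpl32: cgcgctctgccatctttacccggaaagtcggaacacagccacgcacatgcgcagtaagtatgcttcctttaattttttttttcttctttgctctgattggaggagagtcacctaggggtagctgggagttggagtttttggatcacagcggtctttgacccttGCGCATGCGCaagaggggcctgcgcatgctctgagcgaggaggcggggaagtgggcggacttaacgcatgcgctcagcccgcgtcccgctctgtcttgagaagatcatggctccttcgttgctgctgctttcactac
Mrpl14: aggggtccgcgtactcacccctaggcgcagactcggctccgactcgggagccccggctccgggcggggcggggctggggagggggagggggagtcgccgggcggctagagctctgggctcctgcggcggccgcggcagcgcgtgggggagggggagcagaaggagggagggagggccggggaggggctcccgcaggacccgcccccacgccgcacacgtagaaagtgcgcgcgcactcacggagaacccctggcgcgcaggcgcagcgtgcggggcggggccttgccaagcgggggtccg
Of the 75 promoters, those of Mrps18a and Mrps27 held 2 kinds of motif.

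Knockdown-labelled library 4 was the lowest of the 16 libraries for 44 of the 78 genes (56.4%), 25 of the large and 19 of the small subunit, where it was the lowest for 25.0% of all genes tested. It was the highest for 5 of the 78 (6.41%), against 25.5% of all genes. Against the mean of the other 15 libraries, the median gene of the set was lower by a log2 difference of -0.48 in CPM (counts scaled to a common library total by the TMM factors of edgeR), and 61 of 78 genes were lower. The median difference was -0.37 in the large subunit, with 37 of 49 genes lower, and -0.53 in the small subunit, with 24 of 29 lower. It was 0.02 over all genes tested, -0.37 over 79 cytosolic ribosomal protein genes and 1.80 over the 13 mitochondrially encoded mRNAs, all 13 of which were higher there.

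The deviation of library 4 was uneven within the ribosome. Mrps18b was lowest relative to the other libraries (-2.05 on the log2 scale), followed by Mrpl46 (-1.86), Mrpl48 (-1.54), then Mrpl15, and then Mrpl30 and Mrps18c (-1.48 each). Mrpl18, a protein of the central protuberance, was higher by 1.37 and Mrpl14 by 0.82. The neighbours Mrpl46 and Mrps11 split, at -1.86 and 0.11. The ratio of summed FPKM of large-subunit to small-subunit genes was 3.15 in library 4 and 2.10 to 2.62 in the other 15 libraries. Such a sum weighs the highest genes most, and Mrpl18 and Mrpl14 are among the 4 highest of the large subunit. All genes tested also scattered more in library 4, with an SD of 1.10 on the log2 scale against 0.56 to 0.81 elsewhere. What set this library apart was not tested, and fitted differences that involve it are given with and without it.

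**Figure D2:**
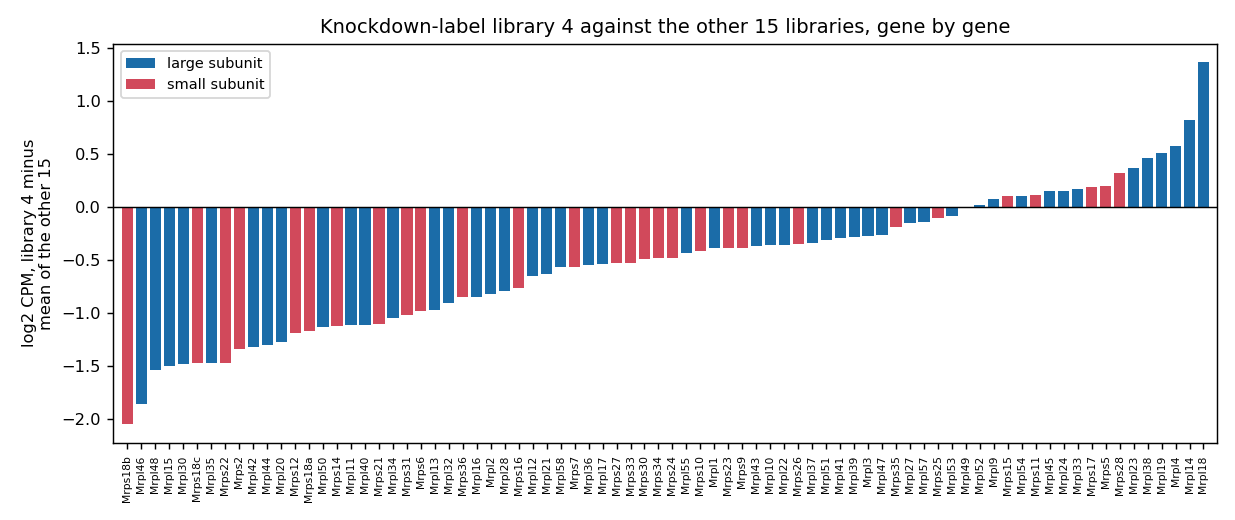
Bars give, for each of the 78 genes, log2 CPM in knockdown-labelled library 4 minus the mean over the other 15 libraries, ordered by value, blue for large-subunit and red for small-subunit symbols. Below 0 lie 61 bars, and the ends are Mrps18b at -2.05 and Mrpl18 at 1.37.

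A subunit score was taken as the mean log2 CPM of the genes of a subunit after each gene was centred on its mean over the 16 libraries. The large-subunit score was 0.05, 0.01, 0.06 and 0.11 in the negative controls and 0.09, 0.11, 0.06 and -0.14 in those with BBR. It was 0.10, 0.05, 0.08 and -0.43 in the knockdown-labelled libraries and -0.02, -0.06, -0.11 and 0.06 in those with BBR. Leaving library 4 aside, the other 15 libraries lay between -0.14 and 0.11, and the groups overlapped.

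The small-subunit score was 0.11, 0.05, 0.06 and 0.04 in the negative controls and 0.16, 0.12, 0.09 and 0.02 in those with BBR. In the knockdown-labelled libraries it was -0.01, -0.02, 0.02 and -0.60, and with BBR -0.04, 0.06, -0.03 and -0.03. All 4 knockdown-labelled libraries were below all 4 negative controls. The means were 0.06 ± 0.03 (SD, n = 4) in the negative controls and -0.15 ± 0.30 (SD, n = 4) under the label, the latter -0.00 ± 0.02 (SD, n = 3) without library 4, so most of that gap came from 1 library.

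**Figure D3:**
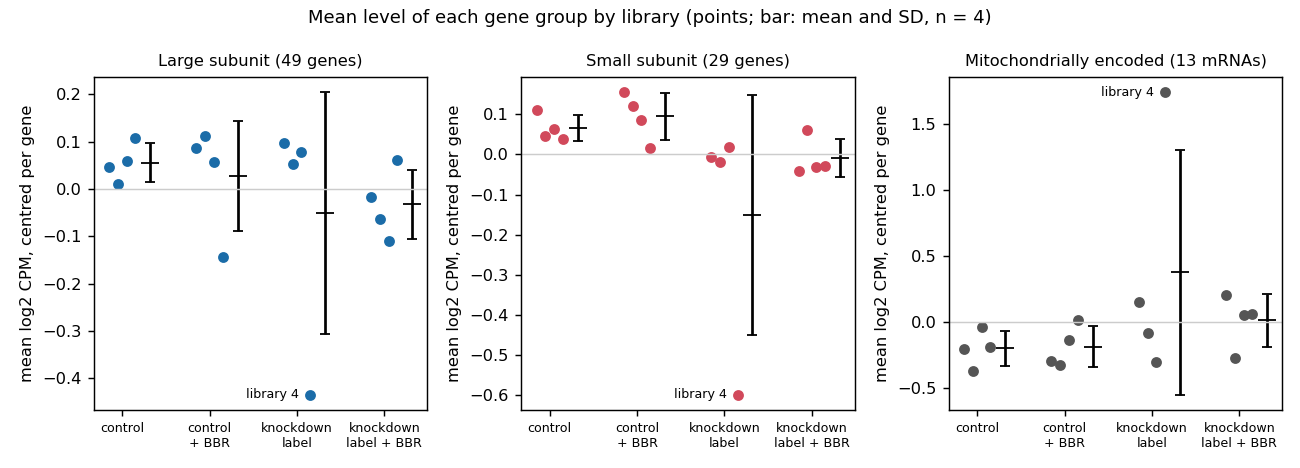
Points are libraries, in 4 groups of 4, and bars give the mean and SD; the y axis is the mean log2 CPM of the genes of each set, centred per gene, with its own scale in each panel. Library 4 of the knockdown label is lowest in both subunits (-0.43 and -0.60) and highest for the 13 mitochondrially encoded mRNAs (1.74), and the other 15 libraries lie between -0.14 and 0.16 in the 2 subunits.

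The comparison of the knockdown-labelled libraries with the negative controls, both without BBR, asks what the label goes with in untreated mice. No gene of the set passed: at an adjusted p of 0.05 (Benjamini-Hochberg over 10846 genes, edgeR quasi-likelihood test) stood 0 of 78, as did 0.0% of all genes. At an unadjusted p under 0.05 stood 13 of the 78 (16.7%), 3 higher and 10 lower, against 14.8% of all genes tested, 8.33% higher and 6.45% lower. DESeq2 called 2 of the 78, Mrps9 and Mrpl37, and 0.968% of all genes. The median log2 fold change was -0.14 in the large subunit, with 30 of 49 genes lower, and -0.10 in the small subunit, with 20 of 29 lower, beside 0.02 over all genes. Without library 4 the medians were 0.02 and -0.00, and 24 of 49 and 15 of 29 genes were lower. At an unadjusted p under 0.05 then stood 5 genes higher and 6 lower, against 5.53% and 4.7% of all genes. In the large subunit these were 4 higher and 2 lower of 49, and in the small subunit 1 higher and 4 lower of 29. The medians were thus near 0 without that library, but more small-subunit genes were still lower than higher at that p.

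Groups that did not overlap were found for 7 of the 78 genes, all lower under the label, where 2.52% of all genes were lower without overlap and 2.36% higher. They were Mrpl37, Mrpl16, Mrpl28 and Mrpl46 of the large and Mrps9, Mrps2 and Mrps26 of the small subunit. For 4 of them, Mrpl46, Mrps2, Mrpl16 and Mrpl28, library 4 was far below the other knockdown-labelled libraries: the log2 fold changes were -0.48, -0.53, -0.37 and -0.34 with it and -0.19, -0.31, -0.21 and -0.19 without it. By origin of the protein, the medians were -0.05 and -0.19 for large-subunit genes with and without a bacterial homologue, and -0.09 for both kinds in the small subunit. Without library 4 they were 0.11 and -0.08, and 0.04 and 0.05, so 3 of the 4 changed sign. Mrps18a, Mrps18b, Mrps30 and Mrps36, which were put in neither kind, were all lower, with a median of -0.39 that was -0.18 without library 4.

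Mrps9 (ENSMUSG00000060679; mm10, chromosome 1, 42851233 to 42905683, plus strand) encodes a conserved protein of the head of the small subunit, whose tail reaches the P-site tRNA in bacteria. It stood at 23.3, 23.0, 23.5 and 19.8 CPM in the negative controls and at 15.0, 19.6, 13.0 and 14.2 CPM under the label. Every knockdown-labelled library was below every negative control, by the narrowest margin between 19.6 and 19.8 CPM. The log2 fold change was -0.53 (SE 0.14), 1.45-fold lower, with an unadjusted p of 0.00209 and an adjusted p of 0.267 (edgeR), and it was -0.49 without library 4. By DESeq2 the adjusted p was 0.0461. With BBR, Mrps9 stood at 17.8, 21.1, 21.0 and 19.8 CPM in the negative controls and at 14.4, 15.6, 19.4 and 16.1 CPM under the label, which overlap, with a log2 fold change of -0.28 (SE 0.14).

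Mrps18a (ENSMUSG00000023967; chromosome 17, 46110986 to 46128910, plus strand), the large-subunit member among the 3 S18 copies, showed the largest fitted difference of the set in this comparison. Its levels were 34.9, 25.7, 25.5 and 21.3 CPM in the negative controls and 16.3, 21.4, 16.1 and 10.2 CPM under the label. The groups overlapped by 1 knockdown-labelled library, at 21.4 CPM, and library 4 was the lowest. The log2 fold change was -0.75 (SE 0.22), with an unadjusted p of 0.00456 and an adjusted p of 0.267 (edgeR), and -0.57 without library 4. Of its relatives, Mrps18b had 31.9, 45.6, 36.7 and 28.9 CPM in the negative controls and 31.7, 28.7, 24.3 and 8.13 CPM under the label. Mrps18c had 18.2, 20.5, 20.3 and 18.6 CPM and 16.6, 20.3, 19.4 and 7.08 CPM. Both overlapped between the groups, and in both library 4 was far below the rest.

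Mrps2 (ENSMUSG00000035772; chromosome 2, 28468066 to 28471178, plus strand), a conserved protein that in bacteria joins the small subunit late, stood at 40.6, 36.8, 39.2 and 33.8 CPM in the negative controls and at 28.2, 33.5, 28.6 and 14.2 CPM under the label. The groups were next to each other without overlap, and library 4 was the lowest. The log2 fold change was -0.53 (SE 0.19), adjusted p 0.290 (edgeR), and -0.31 without library 4, a change of over 1.5 times. With BBR the order was not seen: Mrps2 had 38.8, 37.1, 34.5 and 38.5 CPM in the negative controls and 35.7, 42.5, 40.6 and 35.2 CPM under the label, with a log2 fold change of 0.05 (SE 0.19).

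In the large subunit, Mrpl37 (ENSMUSG00000028622; chromosome 4, 107055874 to 107066868, minus strand), a mitochondria-specific protein, varied little within groups. It stood at 39.9, 37.1, 38.8 and 40.4 CPM in the negative controls and at 30.6, 34.1, 26.5 and 27.5 CPM under the label. Library 4 was not the lowest here. The fitted difference was -0.40 on the log2 scale (SE 0.12), 1.32-fold lower, with an unadjusted p of 0.00376 and an adjusted p of 0.267 (edgeR) (0.0494 by DESeq2), and -0.35 without library 4. With BBR the levels were 35.9, 39.7, 36.5 and 34.5 CPM and 30.7, 38.5, 33.3 and 30.1 CPM, which overlap, with a log2 fold change of -0.15 (SE 0.12).

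Mrpl33 (ENSMUSG00000106918; chromosome 5, 31596935 to 31664384, plus strand), a small conserved protein near the exit site for tRNA, was higher under the label. It had 18.4, 21.9, 22.4 and 18.3 CPM in the negative controls and 28.2, 21.8, 30.7 and 26.4 CPM under the label. All but 1 knockdown-labelled library were above the controls. The fitted log2 fold change was 0.40 (SE 0.15), adjusted p 0.290 (edgeR), and 0.42 without library 4. The other genes at an unadjusted p under 0.05 were Mrpl54 and Mrpl18, higher (0.49 and 0.60 on the log2 scale), and Mrpl16, Mrpl43, Mrpl28, Mrps26, Mrps31 and Mrps23, lower (-0.29 to -0.45). Without library 4 the values were 0.56 for Mrpl54 and 0.13 for Mrpl18. Mrpl16 was then at -0.21, Mrpl43 at -0.34, Mrpl28 at -0.19, Mrps26 at -0.30, Mrps31 at -0.28 and Mrps23 at -0.25. Of these 8, Mrpl54, Mrpl16 and Mrps26 were still at an unadjusted p under 0.05 (0.0253, 0.0373 and 0.0492, edgeR). For Mrpl18 library 4 held 175 CPM and the other knockdown-labelled libraries 62.3 to 79.5 CPM.

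The calls depended on another library too. Without knockdown-labelled library 2, 5 of the 78 genes passed by edgeR (quasi-likelihood, Benjamini-Hochberg), beside 5.61% of all genes. These were Mrps9 (adjusted p 0.0262), Mrpl43 (0.0345), Mrps12 (0.0369), Mrps18a (0.0395) and Mrpl37 (0.0410), all lower under the label. Mrps12, a protein of the decoding centre, had 32.5 CPM in library 2 and 15.9, 18.3 and 10.1 CPM in the other knockdown-labelled libraries. Kupffer cell and macrophage markers (6 genes) summed to 18.6 to 49.2 FPKM in the negative controls and to 46.0 to 120 FPKM under the label, and neutrophil markers (4 genes) reached 278 FPKM in 1 knockdown-labelled library. Their part in these differences was not tested.

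**Figure D4:**
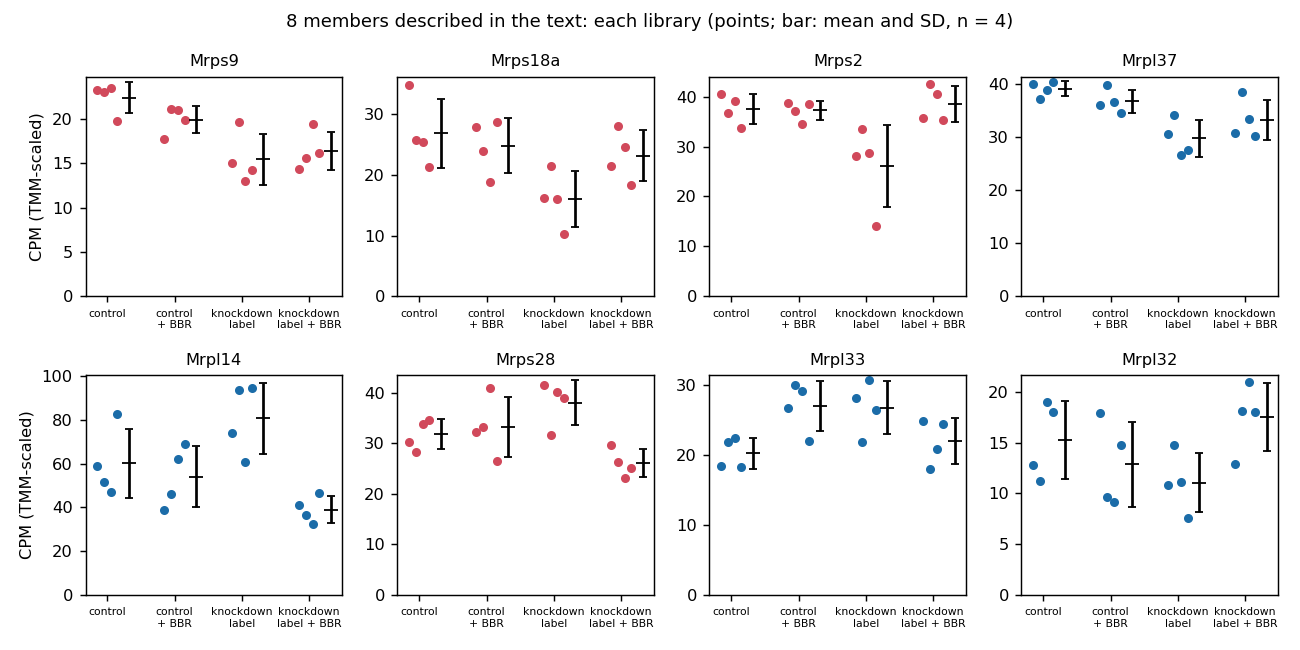
Each panel shows 1 gene: points are TMM-scaled CPM in each library, in 4 groups of 4, with the mean and SD as bars and the y axis from 0. Mrps9, Mrps18a, Mrps2 and Mrpl37 (top row) are lower in the knockdown-labelled libraries than in the negative controls, with adjusted p of 0.267 to 0.290, and Mrpl14 and Mrps28 (bottom row) are lower with BBR under the label, with adjusted p of 0.370 and 0.396.

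The comparison of BBR with no BBR in negative control mice asks what the compound goes with when the label is absent. Differences were small: 0 of 78 genes passed the adjusted p by edgeR (quasi-likelihood, Benjamini-Hochberg), as did 0.0% of all genes, and 2 of 78 stood at an unadjusted p under 0.05, 1 higher and 1 lower, against 3.68% of all genes (1.74% higher, 1.94% lower). DESeq2 also called 0 of the 78. The 4 untreated libraries are the controls of the label comparison too. The median log2 fold changes were -0.03 in the large and 0.03 in the small subunit, and -0.00 over all genes. Mrpl33 had 26.7, 30.0, 29.1 and 22.0 CPM with BBR, where all but 1 library lay above the 18.3 to 22.4 CPM of the untreated controls, a log2 fold change of 0.41 (SE 0.15, unadjusted p 0.0156 and adjusted p 0.999 (edgeR)).

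Mrpl49, a mitochondria-specific protein of the large subunit, was the only gene of the set whose groups did not overlap in that comparison, where 2.07% of all genes were lower and 1.48% higher without overlap. It had 38.3, 42.7, 37.8 and 41.3 CPM without BBR and 33.7, 34.6, 37.0 and 32.1 CPM with it. All 4 treated controls lay below, with a log2 fold change of -0.22 (SE 0.10, unadjusted p 0.0479). Mrps21 had the largest fitted difference, 0.57 (SE 0.35), but overlapped: 52.9, 46.3, 28.8 and 36.5 CPM without and 64.0, 76.6, 61.0 and 43.3 CPM with BBR.

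The comparison of BBR with no BBR among knockdown-labelled mice asks the same under the label. Again 0 of 78 genes passed by edgeR (quasi-likelihood, Benjamini-Hochberg), as did 0.0% of all genes, and 7 of 78 stood at an unadjusted p under 0.05, 4 higher and 3 lower, against 9.48% of all genes (4.27% higher, 5.21% lower). The medians were 0.00 in the large and 0.08 in the small subunit, and -0.06 and -0.02 without library 4. The balance turned with that library: without it 1 gene was higher and 11 were lower at an unadjusted p under 0.05, against 5.23% and 5.75% of all genes, and 51 of the 78 were lower at any p. Non-overlapping groups were found for Mrpl14, Mrps28 and Mrps11, lower, and Mrps2, higher, where 1.71% of all genes were lower and 2.20% higher without overlap.

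Mrpl14 (ENSMUSG00000023939; mm10, chromosome 17, 45686322 to 45698495, plus strand) differed most. The knockdown-labelled libraries held 73.8, 93.7, 60.6 and 94.5 CPM without BBR and 40.8, 36.3, 32.1 and 46.4 CPM with it. Every treated library was below every untreated one, with a gap from 46.4 to 60.6 CPM. Its fitted log2 fold change was -1.05 (SE 0.22), 2.07-fold lower, with an unadjusted p of 0.000282 and an adjusted p of 0.370 (edgeR), and -0.97 without library 4. DESeq2 gave an adjusted p of 0.00668, and called 0.507% of all genes. In the negative controls Mrpl14 had 59.0, 51.5, 47.1 and 82.6 CPM without BBR and 38.8, 45.9, 62.0 and 69.1 CPM with it, which overlap widely.

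Mrps28 (ENSMUSG00000040269; chromosome 3, 8802146 to 8923918, minus strand) followed. It stood at 41.5, 31.6, 40.1 and 39.0 CPM without BBR and at 29.7, 26.2, 23.0 and 25.2 CPM with BBR under the label. The lowest untreated library was above the highest treated one. The log2 fold change was -0.55 (SE 0.14), with an unadjusted p of 0.00180 and an adjusted p of 0.396 (edgeR), and -0.54 without library 4. By DESeq2 the adjusted p was 0.0513. In the negative controls the values were 30.3, 28.3, 33.8 and 34.6 CPM without and 32.3, 33.1, 40.9 and 26.5 CPM with BBR, and the groups overlapped.

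Mrpl32 (ENSMUSG00000015672; chromosome 13, 14608184 to 14613165, minus strand) differed the other way, with 10.8, 14.8, 11.1 and 7.56 CPM without and 12.9, 18.2, 21.0 and 18.0 CPM with BBR under the label. The groups overlapped between 12.9 and 14.8 CPM. Its log2 fold change was 0.66 (SE 0.26), adjusted p 0.472 (edgeR), and 0.52 without library 4. Mrps2 was higher by 0.56 (SE 0.19) and Mrps18a by 0.53 (SE 0.22), and without library 4 by 0.35 and 0.37. This comparison shares its 4 untreated libraries with that of the label without BBR, in which both genes were lower. Mrpl57 (-0.39, and -0.49 without library 4) and Mrps23 (0.31 and 0.27) completed the list.

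With BBR in both groups, the comparison of the label with the control gave 0 of 78 genes by edgeR (quasi-likelihood, Benjamini-Hochberg), as it gave 0.0% of all genes, and 1 of 78, lower, at an unadjusted p under 0.05, against 4.57% of all genes (2.38% higher, 2.19% lower). DESeq2 called 0 of the 78 as well. The gene was Mrps28, with a log2 fold change of -0.35 (SE 0.14). More genes were lower than higher, 31 of 49 in the large and 23 of 29 in the small subunit, but the medians were -0.07 and -0.10 beside -0.01 over all genes. Mrpl16, whose bacterial homologue lies near the peptidyl transferase centre, and Mrpl43 were lower without overlap, as were 2.27% of all genes, and 0 of the 78 were higher without overlap, against 2.32%. Mrpl16 had 38.0, 41.9, 37.0 and 36.9 CPM in the treated controls and 31.5, 33.8, 32.5 and 32.7 CPM in the treated knockdown-labelled mice. It was also lower without overlap in the untreated mice, with 37.0, 39.4, 39.5 and 34.7 CPM against 31.1, 34.6, 31.2 and 19.6 CPM.

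The interaction term asks whether the difference with BBR was the same under both labels. It passed for 0 of 78 genes by edgeR (quasi-likelihood, Benjamini-Hochberg), as for 0.0% of all genes, and stood at an unadjusted p under 0.05 for 5 of 78, 1 above and 4 below 0, against 6.56% of all genes (2.71% above, 3.84% below). These were Mrpl33 (-0.70, SE 0.21), Mrpl14 (-0.90, SE 0.31), Mrps28 (-0.61, SE 0.20), Mrpl32 (0.91, SE 0.37) and Mrpl54 (-0.64, SE 0.30), with adjusted p of 0.756. Without library 4 these were -0.72, -0.83, -0.61, 0.75 and -0.71 in that order, and 1 of the 78 stood above and 8 below 0 at an unadjusted p under 0.05, against 3.25% and 4.61% of all genes. By DESeq2 0 of the 78 passed. For Mrpl14 and Mrps28 a difference between the responses to BBR under the 2 labels was not established after adjustment. The medians were 0.06 and 0.03, and -0.05 and -0.07 without library 4.

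**Figure D5:**
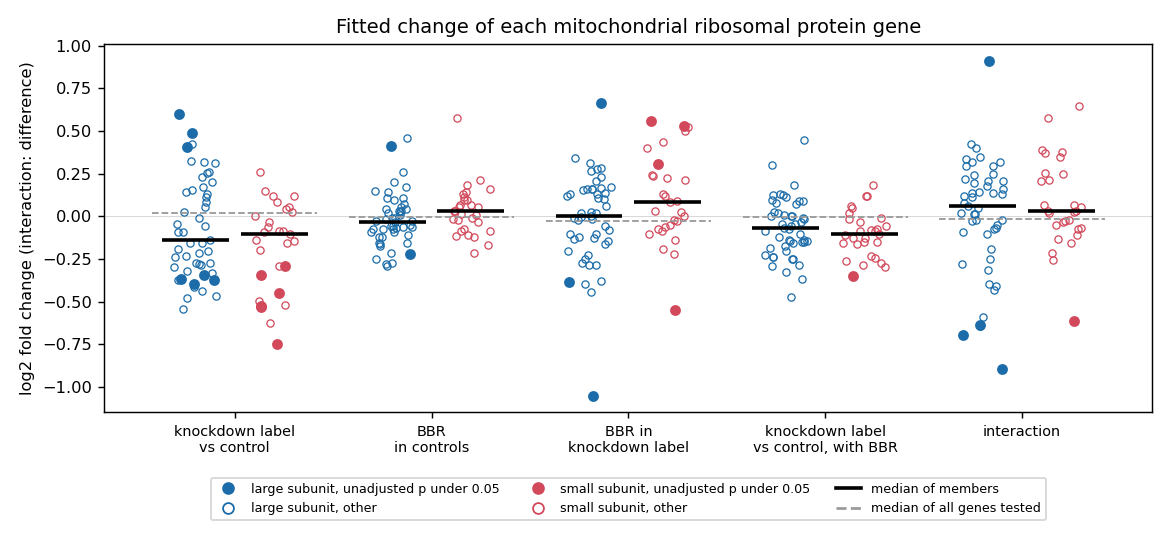
Each point is 1 gene's fitted log2 fold change in 1 of the 5 comparisons, blue for large-subunit and red for small-subunit symbols, filled at an unadjusted p under 0.05; black lines are medians of the genes shown and dashed lines the medians of all genes tested. The medians lie between -0.14 and 0.08, and 0 genes pass the adjusted threshold in any of the 5.

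The 78 genes did not vary as 1 block. The median Pearson correlation of log2 CPM over 16 libraries was 0.22 among large-subunit genes (1176 pairs) and 0.27 among small-subunit genes (406 pairs), and without library 4 it was 0.10 and 0.03. Over the same libraries it was 0.48 and 0.48 among cytosolic ribosomal protein genes, and 0.84 and 0.49 among the 13 mitochondrially encoded mRNAs. It was -0.00 over all pairs of genes tested. These points share library and depth, and the values are descriptions. Within groups the median SD of log2 CPM was 0.26 in the large and 0.28 in the small subunit, and 0.36 over all genes tested. The genes were not matched for level, with median FPKM of 14.1 and 8.63 against 3.66 over all genes tested. The widest spreads were those of Mrpl53, Mrpl48 and Mrpl46 in the large and Mrps18b, Mrps21 and Mrps12 in the small subunit. Mrpl53, whose sequence is largely shared with another gene, ran from 1.34 to 6.99 CPM in the treated controls alone, and Mrps21 from 21.3 to 72.3 CPM under the label.

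Genes that serve the mitochondrial ribosome were read beside it. Of 14 translation factors tested, 0 passed and 4 stood at an unadjusted p under 0.05 under the label without BBR, all lower, with a median of -0.21, against 6.45% of all genes lower. Without library 4 it was 1 of 14, against 4.7%, with a median of -0.17. Mtif3, an initiation factor, had a mean of 4.56 FPKM in the negative controls and 2.30 FPKM under the label (log2 fold change -0.92, SE 0.25, adjusted p 0.267 (edgeR)), and without library 4 the value was -0.72. Gfm1 and Tufm, both elongation factors, had log2 fold changes of -0.76 and -0.77, and -0.51 and -0.49 without library 4. With BBR under the label Mtif3 was at 4.76 FPKM, a log2 fold change of 0.92 (SE 0.25, adjusted p 0.396 (edgeR)), and 0.73 without library 4. Mtfmt, which formylates the initiator tRNA, was at 1.01 FPKM without and 1.86 FPKM with BBR there (0.71, SE 0.18, adjusted p 0.396 (edgeR), and 0.76 without library 4).

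Of 25 assembly and rRNA modification factors tested, 3 stood at an unadjusted p under 0.05 under the label, a share below the 14.8% of all genes, all lower (6.45% of all genes were lower), with a median of -0.08 (-0.07 without library 4). They were Mterf4, which brings an rRNA methyltransferase to the ribosome, Mtg1, a GTPase of large-subunit assembly, and Ngrn. Their log2 fold changes were -0.58, -0.61 and -0.44, and -0.44, -0.53 and -0.47 without library 4. Among 5 proteins of the ribosome that carry other symbols, Gadd45gip1 had a mean of 29.1 FPKM in the negative controls and 40.2 FPKM under the label (0.58, SE 0.18, adjusted p 0.267 (edgeR)), and 30.9 FPKM with BBR under the label (-0.54, SE 0.18). Without library 4 these were 0.51 and -0.47. None of 13 mitochondrial aminoacyl-tRNA synthetases (median -0.11, and -0.07 without library 4) and none of 11 genes of mitochondrial transcription and its regulators (median 0.16, and 0.04) stood at an unadjusted p under 0.05. Of the mRNAs that the ribosome translates, 13 of 13 were higher under the label, with a median of 0.78, and 12 of 13 without library 4, with a median of 0.10. The 79 cytosolic ribosomal protein genes had a median of 0.17, with 58 higher, and 0.29 without library 4. In each of these lists 0 genes passed the adjusted p in the 5 comparisons.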

How the data were processed

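For 55401 genes the deposited table of the authors gives, per the file headers, raw counts as whole numbers and FPKM for each of the 16 libraries; their FPKM are relative to transcript length and library total. HISAT2 2.0.4, StringTie 1.3.4d, cutadapt 1.9, DESeq2, edgeR and the build mm10 are named, per the submitters' processing notes, with no roles given, and the counting tool is not given in the sources used here. Libraries were made from poly(A) RNA with a marked second strand, per the labels' protocols. Total counts per library were 46273129 to 66235443.

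The 78 genes, the related lists and the tests were chosen with earlier results of these data known. The type column lists several types for most genes, and a gene was taken where protein_coding is among them. Counts of genes with at least 1 FPKM in at least 4 libraries (10846) were fitted with edgeR 4.0.16 (TMM factors, quasi-likelihood, 4 group means over all 16 libraries); tests were two-sided, and adjusted p are Benjamini-Hochberg values over all genes, with calls at 0.05. The 5 contrasts were the label without BBR, BBR without the label, BBR under the label, the label under BBR, and the interaction. CPM are counts scaled to a common total over tested genes with TMM factors; log2 CPM has a prior count of 2. Levels of different genes were compared in FPKM only.

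The named genes were, per subunit, the 2 with the smallest p in each contrast, the 4 highest and 4 lowest by median FPKM, the 3 with the widest spread within groups, 5 whose symbol does not give their place, and up to 3 per related list and contrast; others were named after their values were seen. Alternatives were DESeq2 1.42.0, limma 3.58.1 on log2(FPKM + a pseudocount of 1, 0.1 or 5), median-of-ratios factors, factors without mitochondrially encoded and cytosolic ribosomal protein genes, a robust spread, other filters, fits to the groups compared, a block for the replicate number, leaving out each library or knockdown-labelled libraries 3 and 4, and, added after seeing the data, leaving out genes that share sequence. Annotation was GENCODE M21; promoters were from RefSeq (GRCm38.p6). Of all column pairs 0 were identical. The edgeR fit was tested on simulated counts with planted changes larger than the differences described here. That test does not measure its power at their size. R 4.3.3 and Python 3.11.15 were used.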

Additional observations from a re-analysis of the deposited data

Results flagged for a closer look

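Of 80 groups of 4 libraries examined (18 genes and the 2 subunit scores), 7 had a library far from the other 3 by Dixon's criterion. Chance flags about 1 of 20 groups that were not chosen by their values. Many of the 18 genes were chosen in these data by their p or their wide spread within groups, Mrpl46 and Mrps21 by spread among them. That rate therefore does not apply here, and the flags are a description only. Knockdown-labelled library 4 was far below its group in the large-subunit score (-0.43), in the small-subunit score (-0.60), for Mrpl46 (4.60 CPM, with 15.1 to 16.9 CPM in the other 3) and for Mrps30 (16.4 CPM, with 23.3 to 23.6 CPM in the other 3). Knockdown-labelled library 3 was far above its group for Mrps21, with 72.3 CPM against 21.3 to 27.9 CPM. Negative control library 4 was far below its group for Mrps9, with 19.8 CPM against 23.0 to 23.5 CPM. Knockdown-labelled library 2 with BBR was far above its group in the small-subunit score (0.062, with -0.04 to -0.03 in the other 3).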

How the results depend on the processing

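For the 2 genes of smallest p per subunit and comparison, 542 of 548 recomputed values over the alternatives run kept their direction and their side of the adjusted threshold, 6 crossed it and 0 changed sign. These genes were chosen by their p in the same data, and 0 passed the threshold at the start. The tally was therefore largely fixed by that choice and is a description only. DESeq2 called Mrps9 (-0.53) and Mrpl37 (-0.39) under the label, 2 genes, and Mrpl14 (-1.05) with BBR under the label, 1 gene; without knockdown-labelled library 2, Mrps9 (-0.67), Mrpl37 (-0.47) and Mrps18a (-0.91) passed. Over all 78 genes, leaving out knockdown-labelled library 4 changed the sign of the log2 fold change for 13 under the label (12 from lower to higher), for 20 with BBR under the label (18 from higher to lower, such as Mrpl46 from 0.14 to -0.15) and for 22 in the interaction. Leaving out 1 library at a time, the count of called genes was 0 to 5 under the label (5 without knockdown-labelled library 2) and 0 in the other comparisons. The count at an unadjusted p under 0.05 was 6 (without negative control library 1) to 23 (without knockdown-labelled library 2) under the label, 1 to 3 for BBR in controls, 4 to 16 for BBR under the label, 0 to 6 for the label with BBR and 3 to 12 for the interaction. Of all 10846 genes, 1025 and 2964 stood there in those fits under the label. For BBR in controls, a fit at each end held 352 and 612 such genes, and for BBR under the label 630 and 2034. For the label with BBR they were 495 and 795, and for the interaction 611 and 1538. The large-subunit median was -0.15 to 0.016, -0.06 to 0.02, -0.06 to 0.10, -0.12 to -0.04 and -0.05 to 0.11 in that order. The small-subunit median was -0.20 to -0.004, 0.0001 to 0.05, -0.02 to 0.13, -0.14 to -0.07 and -0.07 to 0.13.

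The other counts at an unadjusted p under 0.05 that moved by over 1.5 times follow; their cause was not tested. Under the label (13) it was 6 both in the fit to the 2 groups and without knockdown-labelled libraries 3 and 4. Of all 10846 genes it was 945 and 394 in these fits, and 1603 in the fit used above. For BBR in controls (2) it was 1 with limma at each pseudocount, with median-of-ratios factors, without mitochondrially encoded and ribosomal protein genes and with no filter, 0 with a filter at 5 FPKM and 4 without libraries 3 and 4. Of all genes, 399 stood there in the fit used above, 357 to 372 with limma, 396 with median-of-ratios factors and 395 without those genes. With no filter it was 1193 of 25281, with a filter at 5 FPKM 196 of 5069, and without libraries 3 and 4 it was 657. For BBR under the label (7) it was 13 with limma at each pseudocount and 3 in the fit to the 2 groups. Of all genes it was 1298 to 1314 with limma, 670 in the fit to the 2 groups and 1028 in the fit used above. For the label with BBR (1) it was 2 with DESeq2, median-of-ratios factors or no filter, 0 with limma, 5 in the fit to the 2 groups and 6 without libraries 3 and 4. Of all genes it was 617 with DESeq2, 495 with median-of-ratios factors, 1340 of 25281 with no filter and 507 to 541 with limma. It was 774 in the fit to the 2 groups, 850 without libraries 3 and 4 and 496 in the fit used above. For the interaction (5) it was 8 with limma at pseudocounts of 1 and 0.1, and the fit to the groups compared gives no value. Of all genes it was 848 and 857 with limma at these pseudocounts and 711 in the fit used above. With limma at pseudocounts of 1 and 0.1 the interaction medians were 0.22 and 0.26 (large subunit) and 0.21 and 0.25 (small), and the large-subunit median with BBR under the label was 0.15 and 0.18. Over all genes the medians of these fits were 0.14 and 0.18 for the interaction and 0.11 and 0.16 for BBR under the label. At 0.1 the small-subunit median under the label was -0.26, beside -0.11 over all genes. The FPKM values of all libraries enter these fits without TMM factors, and the part of this in the moved medians was not tested. With the replicate number as a block, 1 gene stood at an unadjusted p under 0.05 for BBR in controls and 2 for the label with BBR, and 0 were called in any comparison. Of all genes, 415 and 504 stood there in these 2 comparisons. Same-numbered libraries did not deviate together (correlation of deviations -0.17 to 0.21, over 0.1 in 4 of 24 pairs, and 5 of 16 libraries correlated best with their own number), so the block was not read as a pairing. Leaving out the 9 genes that share sequence with other genes on either strand moved no count by over 1.5 times. Each gene had at least 77 counts per library; whether depth or the spread between libraries limits the calls more was not tested.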
